A study of Mus musculus with 4 samples.

Results

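The genes described here are 9 genes of megakaryocytes and platelets, Pf4, Itga2b, Gp1bb, Gp9, Gp5, Treml1, Plek, F2rl2 and Vwf, out of 19057 genes with a named probe on the array. They were taken by gene symbol, and the platform annotation gave 11 probes for them, 2 each for Itga2b and Vwf and 1 for each other gene. Whole yolk sacs of C57BL/6 mouse embryos at day 9.5 gave the total RNA for 4 Illumina bead arrays, 2 labelled ETV2 CKO and 2 labelled control. In the ETV2 CKO group Etv2, an ETS-family transcription factor gene needed for blood and endothelial cells to form, was deleted with loxP sites and a Flk1Cre recombinase, so that the deletion was aimed at cells that express the receptor Flk1. The labels do not say whether control embryos carried the Cre or the loxP sites, nor whether embryos were pooled, so an effect of either cannot be told apart from the deletion, and the p-values here speak for the spread among 4 samples that may differ only technically.

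Megakaryocytes are the large marrow, liver and yolk sac cells that release platelets. In the yolk sac they arise beside red cells from a progenitor that can give both, and the factor Gata1 is needed in both lineages. Platelets stick to damaged vessel walls when their surface complex of glycoproteins Ib, IX and V binds von Willebrand factor, are activated by thrombin through protease-activated receptors, clump through an integrin that binds fibrinogen, and empty granules that hold chemokines.

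The probe of Etv2 itself read higher, not lower, on the ETV2 CKO arrays. Its raw intensities were 206 and 227 there, and 157 and 177 on control arrays (log2 difference 0.46 ± 0.10, SE, n = 2 a group, limma adjusted p = 0.0199). The sources used here do not place this probe inside or outside the floxed stretch, and outside it the probe is no check of the labels, so the arrays are called by their labels, CKO-labelled and control. Each array had 17934 to 18798 of its 45281 probes above background, taken as a detection p-value under 0.05, and 10603 genes with such a probe on at least 2 arrays were tested. The log2 difference of Xist was 1.05 and that of Eif2s3y, a gene of the Y chromosome, was -0.73. Both genes were above background on every array, and whether samples held RNA of both sexes was not tested. The sex of the embryos cannot be told apart from the group. In RNA of whole tissue, fewer cells of a type and less RNA per cell cannot be told apart.

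The windows around the transcription starts of 4 of the genes are printed here because they show the letters that factors of the GATA and ETS families can bind, beside genes whose levels did and did not differ. They run 5′ to 3′ on the gene's strand, from 250 bases before to 50 after the start in the RefSeq annotation of GRCm38.p6, and capitals mark matches on either strand. The GATA letters were AGATAA, with T also allowed in the first place and G in the last, and the ETS letters were AGGAAG, with C also allowed in the first place. Pf4 lies at chr5:90772185-90772484 on the plus strand, F2rl2 at chr13:95696670-95696969 on the plus strand, Gp5 at chr16:30310732-30311031 on the minus strand and Itga2b at chr11:102469834-102470133 on the minus strand.
Pf4: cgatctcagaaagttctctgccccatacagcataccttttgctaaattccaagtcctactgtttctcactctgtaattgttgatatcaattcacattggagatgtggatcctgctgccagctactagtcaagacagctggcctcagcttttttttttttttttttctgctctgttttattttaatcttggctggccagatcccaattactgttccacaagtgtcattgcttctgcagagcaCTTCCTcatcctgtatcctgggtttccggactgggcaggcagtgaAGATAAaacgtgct
F2rl2: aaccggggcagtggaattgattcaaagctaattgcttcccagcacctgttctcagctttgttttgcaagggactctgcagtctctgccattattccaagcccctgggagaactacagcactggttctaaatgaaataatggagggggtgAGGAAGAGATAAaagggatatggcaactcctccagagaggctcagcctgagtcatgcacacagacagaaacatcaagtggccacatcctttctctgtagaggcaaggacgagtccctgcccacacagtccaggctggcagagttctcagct
Gp5: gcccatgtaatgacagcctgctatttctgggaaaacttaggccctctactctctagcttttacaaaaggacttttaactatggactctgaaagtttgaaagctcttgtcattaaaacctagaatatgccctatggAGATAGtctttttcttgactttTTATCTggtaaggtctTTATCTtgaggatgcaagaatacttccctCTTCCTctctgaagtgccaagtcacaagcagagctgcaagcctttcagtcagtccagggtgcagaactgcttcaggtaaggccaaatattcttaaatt
Itga2b: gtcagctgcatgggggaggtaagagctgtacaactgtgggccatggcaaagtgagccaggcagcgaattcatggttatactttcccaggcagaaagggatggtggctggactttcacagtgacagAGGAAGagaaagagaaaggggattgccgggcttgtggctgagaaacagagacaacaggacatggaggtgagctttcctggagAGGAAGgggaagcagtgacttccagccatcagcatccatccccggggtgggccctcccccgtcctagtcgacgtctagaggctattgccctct

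In the F2rl2 window an ETS match and a GATA match stand side by side, the first starting 101 and the second 95 bases before the start. Pf4 has an ETS match beginning 9 bases before the start and a GATA match after it. Gp5 has 3 GATA matches, 115, 93 and 77 bases before the start, and 1 ETS match, whereas Itga2b has 2 ETS matches and no GATA match in these letters. Windows were found for 8 of the 9 genes, all but Vwf. GATA letters stood in 4 of the 8, against 29.8% of all 32851 RefSeq windows of the same length, and ETS letters in 6 of the 8, against 46.5%. The 4 windows with both were those of Pf4, Gp1bb, Gp5 and F2rl2, and 12.6% of all windows held both. A match of letters is a description and no sign of binding.

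All 9 genes had a probe above background on all 4 arrays, so each was tested. On the CKO-labelled arrays F2rl2 and Pf4 were higher, Vwf was lower, and the 6 others did not pass the test. The members' share of higher genes was 22.2%, where 14.4% of all genes tested were higher, and their share of lower genes was 11.1%, where 10.8% of all genes were. Together 3 of 9 passed, near the 25.2% of all genes that passed in either direction. The median log2 difference over the 9 genes was 0.01, and over all genes tested 0.02. Without any 1 of the 4 arrays 1 gene was higher, F2rl2, and the count of lower genes was 1 without CKO replicate 1 and 0 without each other array. The groups did not overlap for 4 of the 9, or 44.4%, against 65.4% of all genes.

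**Figure D1:**
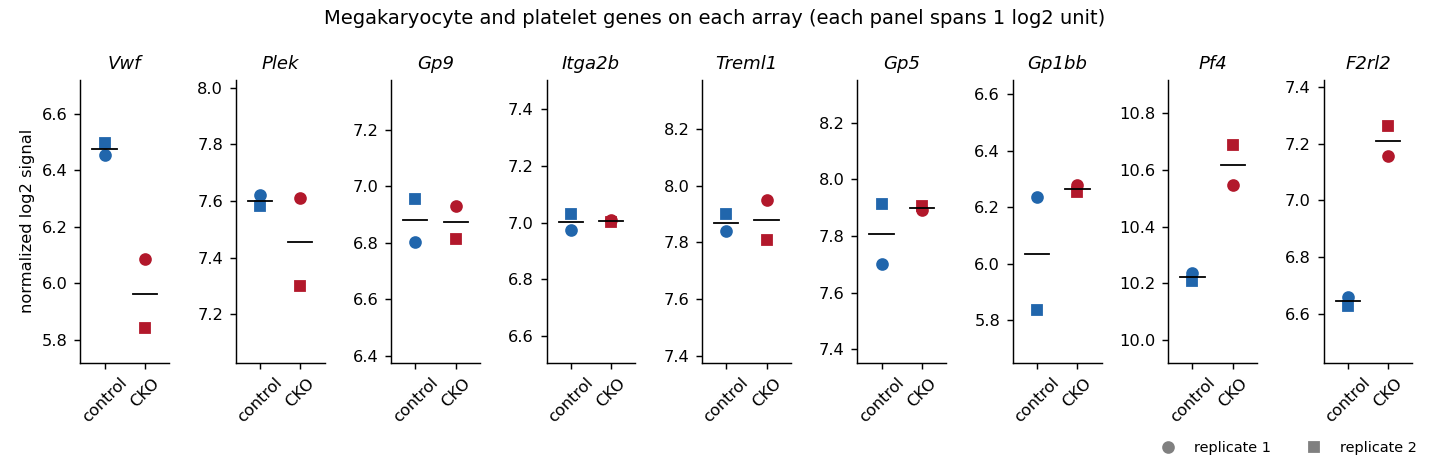
Normalized log2 signal (y axis, each panel spanning 1 log2 unit around the gene's mean) of the 9 genes on the 2 control and 2 CKO-labelled arrays, with circles for replicate 1, squares for replicate 2 and a bar for the mean of each group. The groups stand apart for F2rl2, Pf4 and Vwf, with control replicate 2 of Gp1bb low, and the points of Gp9, Itga2b, Treml1, Gp5 and Plek overlap.

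Among the members, the receptor gene F2rl2 had the lowest adjusted p. F2rl2 encodes protease-activated receptor PAR3, which in mouse platelets helps thrombin to activate PAR4. Its normalized log2 signals were 7.16 and 7.26 on the CKO-labelled arrays and 6.66 and 6.63 on the control arrays. Both CKO-labelled arrays lay above both control arrays, by a gap wider than the distance between replicates. The log2 difference was 0.57 ± 0.09 (SE, n = 2 a group), or 1.48-fold, with a limma adjusted p of 0.00895. It passed the test under all 15 alternatives run, but its size fell to 0.20 on the authors' values and 0.32 without background correction. The gene F2r, which encodes the thrombin receptor PAR1 and acts in cells other than mouse platelets, stood at 12.30 and 12.40 against 11.81 and 11.89. It rose by 0.50 ± 0.10 (limma adjusted p = 0.0139). F2rl3, the gene of PAR4, stood at 0.18 ± 0.10 and did not pass (limma adjusted p = 0.24).

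The granule protein genes gave Pf4 and Vwf in opposite directions. Pf4 encodes platelet factor 4, a chemokine stored in the alpha granules of platelets. Its raw intensities were 1529 and 1917 on the CKO-labelled arrays and 1189 and 1311 on the control arrays, between 10.1 and 14.2 times the lowest signal above background on the same array. On the normalized log2 scale these were 10.55 and 10.69 against 10.24 and 10.21. The CKO-labelled arrays were again both the higher ones, and the 2 control arrays lay close together. The difference was 0.39 ± 0.10 (1.31-fold, SE, n = 2 a group, limma adjusted p = 0.0309). The call was lost when any 1 of the 4 arrays was left out, at limma adjusted p-values of 0.0627 and 0.139 without CKO replicates 1 and 2 and of 0.0827 and 0.0983 without control replicates 1 and 2, while the difference stayed between 0.32 and 0.47.

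Vwf encodes von Willebrand factor, which megakaryocytes and endothelial cells both make and which ties platelets to the vessel wall. Its raw intensities, 162 and 165 on the CKO-labelled arrays and 165 and 181 on the control arrays, were between 1.22 and 1.45 times the lowest signal above background, and the brighter CKO-labelled array came within 1 unit of the dimmer control array. The normalized log2 signals were 6.09 and 5.84 against 6.45 and 6.50. After normalization both CKO-labelled arrays lay below both control arrays. The lowest raw signal above background, which sets the floor of each array, was 125.3 and 134.9 on the CKO-labelled arrays and 117.5 and 124.9 on the control arrays. Vwf fell by 0.51 ± 0.11 (SE, n = 2 a group, limma adjusted p = 0.0217). The difference shrank to -0.23 without background correction and to -0.12 with the values as the authors processed them, where the call was lost (limma adjusted p = 0.0829), and it was lost too without CKO replicate 2 (-0.39), control replicate 1 (-0.53) or control replicate 2 (-0.49). A second Vwf probe was not above background on any array.

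The 3 genes of the von Willebrand factor receptor complex did not pass the test. Gp1bb, Gp9 and Gp5 encode its glycoproteins Ib beta, IX and V, which share leucine-rich repeats and stand on the platelet surface together. Gp1bb had normalized log2 signals of 6.28 and 6.25 on the CKO-labelled arrays and 6.23 and 5.84 on the control arrays. The groups did not overlap, but control replicate 1 lay just under the CKO-labelled arrays and only control replicate 2 was far below. The difference was 0.23 ± 0.14, with a 95% interval from -0.11 to 0.57 (limma adjusted p = 0.277). It was 0.43 without control replicate 1 and 0.03 without control replicate 2. Septin5, the next gene to Gp1bb in the RefSeq order, encodes a septin of the cell cortex and rose by 0.42 ± 0.12 (limma adjusted p = 0.0438). Its probe was near background, not above it on control replicate 1, and did not pass the test over all probes (limma adjusted p = 0.0572). The part of Septin5 in the Gp1bb signal was not tested.

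Gp9 stood at 6.93 and 6.82 on the CKO-labelled arrays and at 6.80 and 6.96 on the control arrays. The 4 arrays interleaved, and the difference was -0.01 ± 0.10 with a 95% interval from -0.26 to 0.24 (limma adjusted p = 0.97). Under median scaling its sign turned, at 0.09. Gp5 stood at 7.89 and 7.90 against 7.70 and 7.91. Control replicate 1 was the low array, and the difference was 0.09 ± 0.11 with a 95% interval from -0.17 to 0.35 (limma adjusted p = 0.575). The fourth gene of the complex, Gp1ba, is on the wider platelet list described below and was not among its tested genes.

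Itga2b encodes the alpha chain of the platelet fibrinogen receptor, known as CD41, which is also one of the earliest surface markers of blood progenitors. Its brighter probe stood at 7.01 and 7.0 on the CKO-labelled arrays and at 6.98 and 7.03 on the control arrays. These 4 values lay within the spread of the replicates, with a difference of 0.00 ± 0.09 and a 95% interval from -0.22 to 0.22 (limma adjusted p = 0.984). Its dimmer probe stood at 6.01 and 5.60 against 6.24 and 6.36. On that probe both CKO-labelled arrays were below both control arrays after normalization. The difference was -0.49 ± 0.15 and did not pass the test over all probes (limma adjusted p = 0.0701). Its raw intensities overlapped, at 158 and 155 against 154 and 173, between 1.15 and 1.38 times the lowest signal above background. The 2 probes thus differed by 0.50 on the log2 scale in what they read from the same arrays, and the mean of both stood at -0.24. Itgb3, the gene of the beta chain, was above background on 1 array of each group and stood at 0.18 ± 0.16 (limma adjusted p = 0.468).

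The remaining members work in platelet activation. Treml1 encodes a receptor held in alpha granules until platelets are activated, and it stood at 7.95 and 7.81 on the CKO-labelled arrays and at 7.84 and 7.90 on the control arrays. The groups overlapped, with a difference of 0.01 ± 0.10 and a 95% interval from -0.23 to 0.25 (limma adjusted p = 0.953). Plek encodes pleckstrin, a substrate of protein kinase C in platelets that white blood cells also make. It stood at 7.61 and 7.30 against 7.62 and 7.58. CKO replicate 2 was the low array and the other 3 were close together, with a difference of -0.14 ± 0.12 and a 95% interval from -0.44 to 0.16 (limma adjusted p = 0.435). Apart from Pf4, the probes that stood for the members lay between 1.19 and 2.74 times the lowest signal above background.

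**Figure D2:**
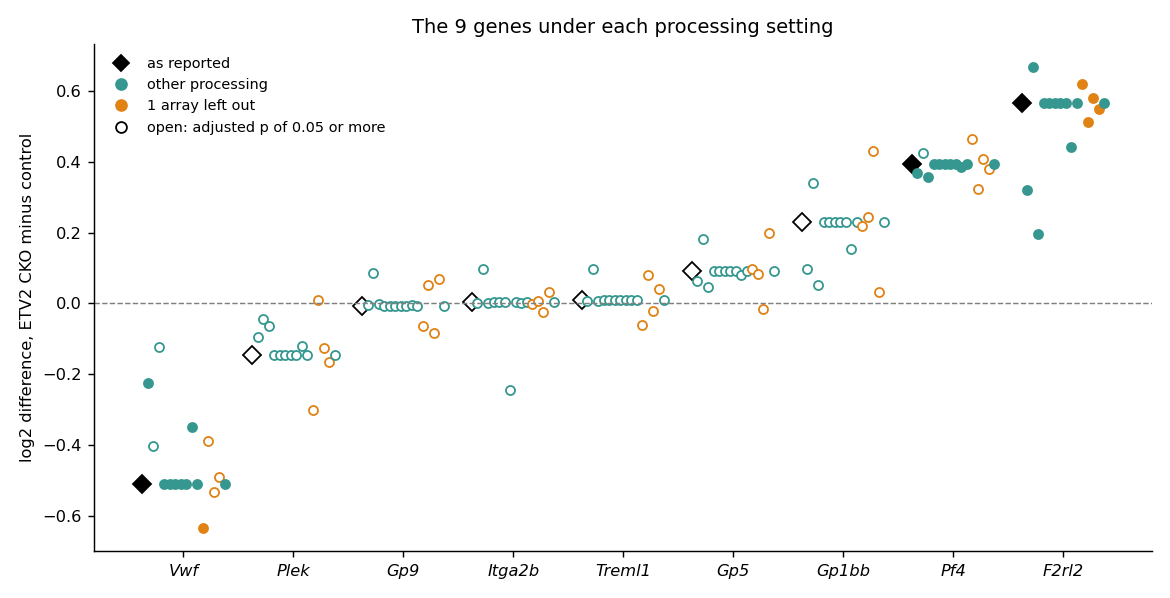
Log2 difference of CKO-labelled minus control arrays (y axis) for each of the 9 genes as reported (black diamonds), under other processing settings (green) and with 1 array left out (orange), open where the limma adjusted p was 0.05 or more. The F2rl2 points are all filled and lie between 0.20 and 0.67, the Pf4 points between 0.32 and 0.47 and the Vwf points between -0.63 and -0.12.

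A wider set of 69 platelet genes, sorted by role, gave 47 tested genes, of which 7 were higher (14.9%, near the 14.4% of all genes), 2 were lower (4.26%, where 10.8% of all genes were) and 38 did not pass. The median log2 difference was 0.14, against 0.02 over all genes, and 32 of the 47 differences were above 0, as were 5602 of the 10603 over all genes. Leaving out CKO replicate 1 gave 4 higher and 2 lower, leaving out CKO replicate 2 gave 3 and 1, leaving out control replicate 2 gave 7 and 1, and the median was 0.039 on the authors' values and 0.065 without background correction. Of 12 adhesion and activation receptor genes, F2r rose and Tbxa2r, the thromboxane receptor gene, fell by 1.07 ± 0.16 (limma adjusted p = 0.00648). Of 8 granule and secreted protein genes, Srgn, which encodes the granule proteoglycan serglycin, rose by 1.0 ± 0.12, Sparc by 0.71 ± 0.09 and Timp3, an inhibitor of matrix proteases, by 0.63 ± 0.09. Sparc is also a gene of the parietal endoderm list, and these 3 genes are made by many cell types. Ppbp, which lies next to Pf4 in the RefSeq order and encodes another alpha granule chemokine, stood at 0.34 ± 0.15 by its brighter probe (limma adjusted p = 0.134) and at 0.72 ± 0.10 by the other (limma adjusted p = 0.00965 over all probes). Both Ppbp probes read higher on the 2 CKO-labelled arrays than on the control arrays.

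Of 13 genes of granule formation and the cytoskeleton, Hps1 and Stx11, both of granule traffic, each rose by 0.43 (limma adjusted p = 0.0349 and 0.0232). Tubb1, the platelet tubulin gene, stood at 8.81 and 8.97 on the CKO-labelled arrays and at 8.54 and 8.57 on the control arrays. It did not pass at 0.33 ± 0.10 (limma adjusted p = 0.0536). Of 12 signalling genes, Lcp2, an adaptor gene used across blood cells, rose by 0.67 ± 0.15 and the phospholipase gene Plcg2 fell by 0.45 ± 0.11. Jak2 and Stat5a of the thrombopoietin pathway stood at 0.17 and 0.03 and did not pass. A further 14 genes of the wider set had a probe that was above background on fewer than 2 arrays, among them Gp6, Selp and P2ry12.

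The genes of red cells, measured on the same arrays, gave lower differences than the platelet genes. Of the 33 tested erythroid genes 22 fell, or 66.7% where 10.8% of all genes were lower, and 11 did not pass. The median difference was -0.54 (SD over genes 0.41). The 4 largest falls were those of the transferrin receptor gene Tfrc, by 1.71 ± 0.09, the erythroid factor gene Klf1, by 1.19 ± 0.10, the water channel gene Aqp1, by 1.18 ± 0.12, and the Rh complex gene Rhag, by 1.17 ± 0.11, with limma adjusted p-values between 0.000334 and 0.00216. The globin genes Hba-x, Hba-a1, Hbb-bh1 and Hbb-y stood at -0.05, -0.03, -0.02 and 0.02 and did not pass. Their mean log2 signals were between 14.33 and 14.53, near the top of the range. The Hba-a1 raw intensities on the control arrays, 23252 and 23388, were the highest on those arrays. So near the top a difference may not show, and these values do not speak for unchanged globin RNA. The dimmer globin gene Hbb-b2 fell by 0.74 ± 0.11. The summed normalized signal of the erythroid list was 112028 to 112241 on the CKO-labelled arrays and 125836 to 126408 on the control arrays. Hba-x, Hba-a1, Hbb-bh1 and Hbb-y gave most of the sum in both groups. For 8 of the 9 members the 95% interval of the difference lay above the erythroid median, Vwf being the exception. Itga2b was counted there by its brighter probe, and its dimmer probe stood at -0.49 ± 0.15, close to that median. The same count over all genes was not made. The median over all genes tested, 0.02, also lay above the erythroid median, so the count does not set the members apart from other genes. Of the 33 erythroid genes, 19 had a lower difference than Vwf, the lowest member, and 26 a lower one than Plek, the next. The median of the members lay 0.55 above that of the erythroid list, and between 0.34 and 0.66 above it over the 15 alternatives. That gap is a description of 2 lists on 4 arrays and was given no test.

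**Figure D3:**
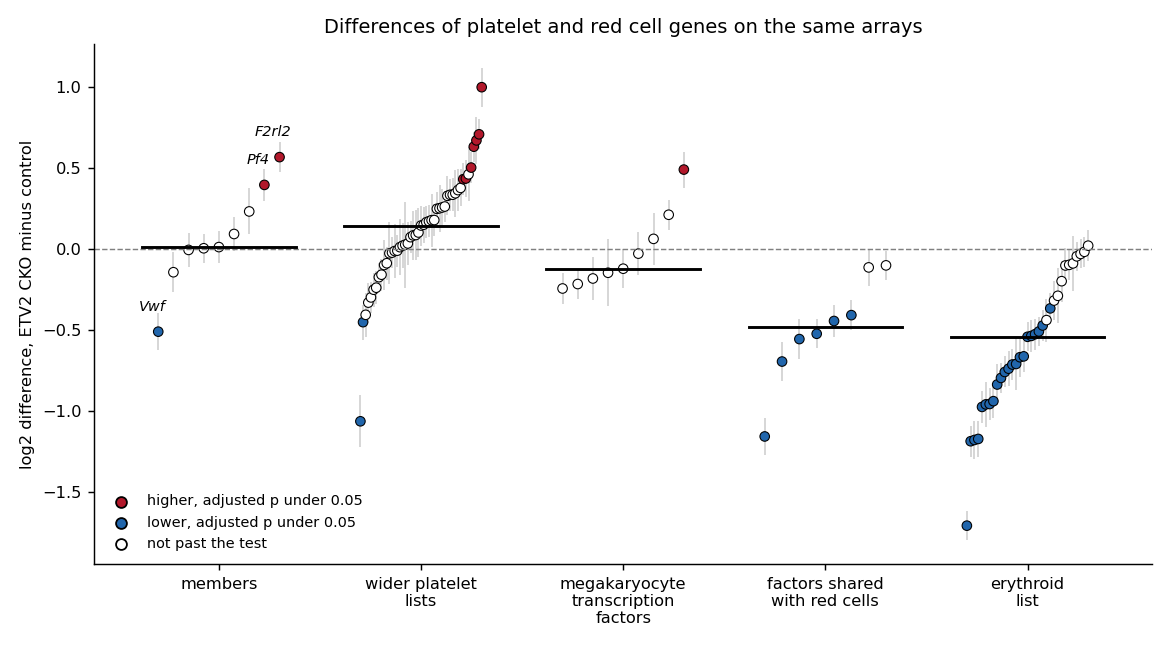
Log2 difference of CKO-labelled minus control arrays (y axis) for each tested gene of 5 lists, with grey bars for the standard error, a black line for the list's median and filled points for genes past a limma adjusted p of 0.05. The members' median is 0.01 and the wider platelet median 0.14, whereas the erythroid median is -0.54.

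Array by array, the median deviation of the 9 members from each gene's mean over the 4 arrays was 0.08 and -0.0024 on the CKO-labelled arrays and -0.04 and 0.03 on the control arrays. The groups overlapped. For the erythroid list the CKO-labelled arrays stood at -0.27 and -0.30 and the control arrays at 0.34 and 0.28, with no overlap. The wider platelet lists stood at 0.08 and 0.10 against -0.09 and -0.02, also with no overlap.

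**Figure D4:**
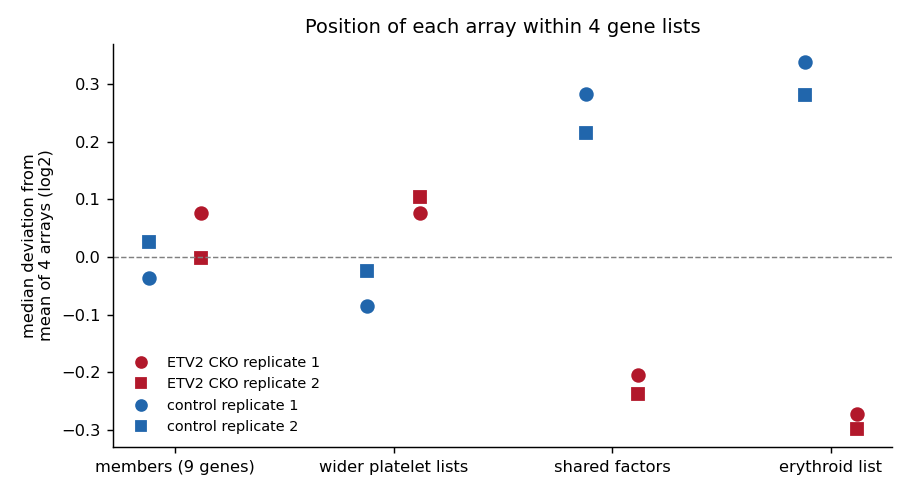
Median over a list's tested genes of the log2 deviation from each gene's mean over the 4 arrays (y axis), with 1 point an array, red for CKO-labelled and blue for control. The members' arrays overlap between -0.04 and 0.08, while the erythroid list splits into -0.30 and -0.27 on the CKO-labelled arrays and 0.28 and 0.34 on the control arrays.

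Most transcription factors that megakaryocytes share with red cells were lower, while most of a second list, of factors known from megakaryocytes, did not pass the test. Of 8 shared factors tested, 6 fell, or 75% where 10.8% of all genes were lower, and the count was 3 both without CKO replicate 2 and without control replicate 1. Gata1, needed for the maturation of both lineages, fell by 1.16 ± 0.11 (limma adjusted p = 0.00215). Tal1 fell by 0.70 ± 0.12, Lyl1 by 0.56 ± 0.12 and Gfi1b, a repressor of transcription that works in both lineages, by 0.52 ± 0.09. Nfe2, which megakaryocytes need in order to release platelets, stood at -0.10 ± 0.09 and did not pass (limma adjusted p = 0.451). Of 9 factors of the second list, Meis1 rose by 0.49 ± 0.11 and 8 did not pass. That is 11.1% higher, near the 14.4% of all genes. Of the 9 differences 6 were negative, with a median of -0.12. Fli1, an ETS factor of megakaryocytes, stood at -0.03 ± 0.13. Its raw intensities were 143 and 154 on the CKO-labelled arrays and 137 and 135 on the control arrays. The lowest raw signals above background there were 125.3 and 134.9, and 117.5 and 124.9. So near background a fall may not show, and the value does not speak for unchanged Fli1 RNA. Mafg, the partner of Nfe2, stood at -0.25 ± 0.09 and Runx1 at -0.15 ± 0.21. The Runx1 probe passed the background cut on both control arrays but not on CKO replicate 1. The part of dim probes in the contrast between the 2 lists was not tested.

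Several members are also made by other cells of the yolk sac, and the markers of those cells moved on the same arrays. Of 19 tested endothelial markers, Vwf among them, 5 rose (26.3%, against 14.4% of all genes) and 5 fell (26.3%, against 10.8%). Their summed normalized signal was 10808 to 10960 on the CKO-labelled arrays and 11044 to 11085 on the control arrays, with Kdr, Ecscr and Clec14a above background on fewer than 2 arrays. Sox7 rose by 1.23 ± 0.12, Robo4 by 0.80 ± 0.10 and Sox17 by 0.79 ± 0.09, whereas Plvap fell by 0.70 ± 0.09. The part of endothelial cells in the Vwf result was not tested. Of 13 macrophage and myeloid markers, 4 fell (30.8%) and 3 rose (23.1%), with Fcgr3 at -1.73, Csf1r at 1.13, Prtn3 at -1.07 and Lcp1 at -0.80. The sum was 2896 to 2903 against 3721 to 3785. Adgre1, Aif1, Timd4 and Elane were among the 9 whose probes did not pass the filter, and the part of these cells in the Plek and Pf4 values was not tested. Of 9 progenitor markers, Kit rose by 1.63 ± 0.09 and Ikzf1 fell by 0.78 ± 0.11, or 11.1% in each direction. The sums were 1291 to 1391 against 1177 to 1196, and the higher sums rested on Kit. The median difference of the 9 was -0.07, and 6 of them were below 0. Ptprc and Gfi1 did not pass the filter, and the part of progenitors in the Itga2b value was not tested.

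Parietal endoderm markers, of a layer that adjoins the yolk sac, rose in 10 of 11 cases, or 90.9% where 14.4% of all genes were higher. Plat rose by 1.70 ± 0.09, Lama1 by 1.55 ± 0.11, Nid1 by 1.27 ± 0.09 and Pth1r by 1.16 ± 0.13. The sum of the list was 32302 to 32992 on the CKO-labelled arrays against 18756 to 18885. Of 6 genes listed as trophoblast giant cell markers only 2 were tested, and Ctsq and Tpbpa did not pass the filter. Prl2c2, one of a family of near-identical genes, rose by 2.91 ± 0.11 and Hand1 by 0.49 ± 0.12. The sum was 942.2 to 1058 against 209.6 to 213, and Prl2c2 gave most of it on the CKO-labelled arrays. The part of parietal endoderm and trophoblast cells in the F2rl2 and Pf4 differences was not tested. Of mast cell markers, Hdc fell by 1.29 ± 0.10, Fcer1a stood at 0.14, and 5 did not pass the filter. The 9 visceral endoderm markers, of the cell layer that makes most yolk sac serum proteins, were all tested and had a median of 0.01, and the lowest unadjusted limma p among them was 0.117. Of genes that would come with maternal blood, S100a8, S100a9, Ngp, Camp and Cd74 were above background on fewer than 2 arrays. The adult-type globin gene Hbb-b2 fell by 0.74 ± 0.11, and Hba-a1, near the top of the signal range, stood at -0.03 ± 0.09 and did not pass.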

How the data were processed

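Total RNA of 4 yolk sac samples, 2 labelled ETV2 CKO and 2 labelled control, was measured on bead arrays. Trizol extraction, column clean-up with DNase and biotinylated cRNA are given per the labels' protocols. The authors deposited non-normalized intensity values on a linear scale, 1 column an array, each with a detection p-value to its right. The deposited p-value columns share 1 name and were tied to the signal on their left. The authors also deposited processed intensity values that share 1 distribution across arrays, with scale steps beside that unknown and a median of 201.4 on each array; these served as an alternative. The submitters' processing notes name lumi 2.15.1 with no role. Values were computed from the raw signals with neqc of limma 3.58.1 in R 4.3.3 (normexp background from the detection p-values, offset 16, quantile normalization, log2). A probe was kept if its detection p was under 0.05 on 2 or more of the 4 arrays (18817 probes), and the brightest named probe stood for a gene. Of 45281 probes 34885 carry 1 symbol, 18 several and 10378 none here. lmFit and eBayes were fitted on group alone over 10603 genes, 2-sided, with Benjamini-Hochberg adjustment and a threshold of 0.05, and were tested on simulated data. With 200 changed genes the fit recovered 10% of log2 changes of 0.5 and 90% of changes of 1, with 6 false calls. In the data 2671 genes were called, so the recovery there may differ. A gene that did not pass may still have changed by 0.5. Intervals used the moderated degrees of freedom (median 6.54). An exact permutation of 2 against 2 arrays cannot give a p below 0.333. Named genes were all members, and from each other list the 4 largest changes past the threshold in groups that did not overlap; further genes are given as values chosen after these were seen. The members and lists were chosen with earlier results of these data known.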

Additional observations from a re-analysis of the deposited data

How the results depend on the processing

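Each result was recomputed under 15 alternatives. F2rl2 kept its direction and its call in all 15 (0.20 to 0.67). Pf4 kept its direction in all 15 and lost its call in 5, median scaling (0.43) and the 4 fits without 1 array. Vwf kept its direction in all 15 and lost its call in 5, median scaling (-0.40), the authors' values and 3 fits without 1 array. The count of members higher was 1 under median scaling and 1 in each fit without 1 array, and the count lower was 0 under both median scaling and the authors' values and 0 to 1 without 1 array. The members' median was 0.10 under median scaling and between -0.020 and 0.081 without 1 array. Differences near 0 changed sign, none of them past the test in either setting. These were Gp9 under median scaling (0.087) and without 1 array (-0.083 to 0.069), Itga2b as the mean of its probes (-0.24) and without 1 array (-0.025 to 0.031), Gp5 (-0.016 to 0.20), Plek (-0.30 to 0.011) and Treml1 (-0.060 to 0.081) without 1 array.

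In the wider platelet set, 13 genes were higher with an offset of 50 and 12 with a trended and robust variance, and 3 to 7 without 1 array. The count lower was 4 with probes above background on all 4 arrays, 4 on the authors' values, 4 as the mean of probes, 4 with a trended and robust variance, 1 under median scaling and 1 to 2 without 1 array. Its median was 0.039 on the authors' values, 0.065 without background correction, 0.078 with an offset of 50, 0.085 with no filter on dim probes, 0.10 as the mean of probes, 0.20 under median scaling and 0.13 to 0.20 without 1 array. The count of shared factors lower, an alternative set chosen after seeing the data, was 3 to 5 without 1 array. The erythroid count was 18 to 24 lower over all alternatives. Its median was -0.34 on the authors' values, -0.46 without background correction, -0.60 with probes above background on all 4 arrays or at a detection p under 0.01, and -0.62 to -0.54 without 1 array. The gap between the members' and the erythroid median was 0.34, 0.47, 0.61 and 0.61 in the same settings, 0.66 under median scaling and 0.53 to 0.66 without 1 array. The cause of these shifts was not tested.

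Over all genes the share of calls that were higher was 57.2% and under median scaling 70.3%, and leaving out 1 array lowered the calls from 1144 lower and 1527 higher to between 545 and 671 lower and between 751 and 1013 higher; in those fits the lone array is assumed to vary like the other group. With no background correction 1602 were lower and 1982 higher, with a trended and robust variance 1640 and 2034. Same-numbered arrays did not deviate together (correlation 0.0665 over genes, 2 pairs), and with the replicate block 2 members were higher and 1 lower, 9 and 3 of the wider set, and 23 erythroid genes lower.

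Most probes of the members lay near background, which limits how far a change can show.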

Other observations

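The genes next to the members in the RefSeq gene order, up to 3 on either side, gave 13 tested genes. Of these, 3 were higher, 1 was lower and 9 did not pass, where 14.4% of all genes were higher and 10.8% lower. The neighbours are named after their values were seen. Cnrip1, near Plek, stood at 0.74, Cpn2, the gene of a carboxypeptidase N subunit near Gp5, at 0.51 and Septin5, next to Gp1bb, at 0.42. Nfya, a subunit gene of the CCAAT-box factor NF-Y next to Treml1, stood at -0.46.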
